A study of Caenorhabditis elegans with 4 samples.

Results

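Nuclear hormone receptor genes were followed in larvae of the nematode Caenorhabditis elegans, taken whole, in animals carrying the dve-1 allele uf171 and in wild type animals. Members were the protein-coding genes with a numbered nhr symbol that reached at least 1 FPKM in at least 2 of the 4 libraries, with 1 gene of the family set aside beforehand and not analysed here. FPKM are fragments scaled to transcript length and to library size, so they are levels per length and can be set side by side between genes. In all, 178 of 254 measured nhr genes were members, and 76 lay below the threshold. A further 14 protein-coding nhr genes of the annotation had no accession in the table and were not analysed here. Across the series, 14664 of 41614 genes passed the same filter, 13479 of them protein-coding.

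Nuclear hormone receptors are transcription factors that bind DNA through a zinc-finger domain and, in many cases, respond to a small fat-soluble ligand through a second domain. Nematodes carry far more of these receptors than insects or vertebrates, and most of them descend from an ancestor related to the vertebrate receptor HNF4. The few with known functions control fat metabolism, the use of nutrients, detoxification, molting and the timing of development. Most of the family has no known ligand.

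The dve-1 mutant group, dve-1(uf171), had 2 libraries, and the wild type group had 2. DVE-1, a homeodomain factor, acts in the stress response to unfolded proteins in mitochondria, and the labels do not describe what the uf171 allele alters. The other conditions were shared by both genotypes: growth at 25 °C on plates seeded with the E. coli strain OP50, and total RNA from whole animals. The animals are labelled L4, which is the final larval stage, but the protocols speak of larvae synchronized and collected at L1, the earliest larval stage, and the labelled stage is used throughout. Separate cultures are not mentioned for the replicates, and the p-values therefore cover the spread among these libraries and no more, and that spread may be technical. In whole animals, fewer cells of a type and less RNA per cell cannot be told apart.

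The depth behind the values, estimated from the steps between low FPKM values, was about 14000000 to 14300000 fragments in the dve-1 mutant libraries and about 14880000 to 15240000 in the wild type libraries. At this depth, 1 FPKM on a transcript of 1500 nt stands for 21 to 22.9 fragments. The targeted gene, dve-1, had 22.98 and 21.1 FPKM in dve-1 mutant animals, against 14.2 and 13.9 FPKM in wild type animals, and since the allele is not described, this level does not check the labels. Markers tested for intestine, hypodermis, muscle, neurons and germ line were detected in all 4 libraries, except that the neuronal gene rab-3 was listed at 0 in dve-1 mutant replicate 1. In the whole table, 19 of 14664 genes (0.13%) passed a Benjamini-Hochberg adjusted p of 0.05 in limma's moderated test of log2(FPKM + 1).

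The receptor family was expressed at modest levels. The median member averaged 7.20 FPKM over the 4 libraries, against 21.1 FPKM for the median protein-coding gene tested, and member means spanned 0.845 to 161 FPKM. Only 1 member averaged 100 FPKM or more, 2 averaged 50 to under 100, and 16 averaged 20 to under 50. There were 42 members at 10 to under 20 FPKM, 49 at 5 to under 10, 49 at 2 to under 5, and 19 under 2 FPKM. At least 1 FPKM was reached in all 4 libraries by 165 members, in 3 libraries by 8 and in 2 libraries by 5.

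The most abundant receptor was nhr-114 (Y45G5AM.1; chromosome V, 4187202 to 4190008, WBcel235), which acts in the methionine cycle and protects the germ line when vitamin B12 is scarce. It had 195 and 155 FPKM in dve-1 mutant animals, against 164 and 129 FPKM in wild type animals. The genotypes overlapped, and the log2 fold change was 0.26 (95% interval -0.34 to 0.85). Next was nhr-49 (K10C3.6; chromosome I, 9869718 to 9874626), the HNF4-like receptor that drives fat breakdown and the response to fasting. Its level was 89.4 and 82.2 FPKM in dve-1 mutant animals, against 93.0 and 92.7 FPKM in wild type animals. Both mutant values lay below both wild type values, but by little: the log2 fold change was -0.11 (95% interval -0.51 to 0.28).

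Below these, nhr-97 had 101.1 and 62.8 FPKM in dve-1 mutant animals, against 68.3 and 77.9 FPKM in wild type animals. Its 2 mutant libraries differed more from each other than from either wild type library. Levels of nhr-137 were 39.8 and 32.4 FPKM in dve-1 mutant animals, against 30.1 and 29.03 FPKM in wild type animals, without overlap and with a log2 fold change of 0.27 (95% interval -0.26 to 0.80). nhr-86, an intestinal sensor of a bacterial metabolite, had 20.1 and 31.7 FPKM in dve-1 mutant animals, against 32.0 and 28.4 FPKM in wild type animals. Its lowest value was in dve-1 mutant replicate 1, and the genotypes overlapped. In the order of mean level, nhr-114 stood above nhr-49 in all 4 libraries, whereas nhr-49 and nhr-97 changed places between libraries and did not differ beyond their spread.

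**Figure D1:**
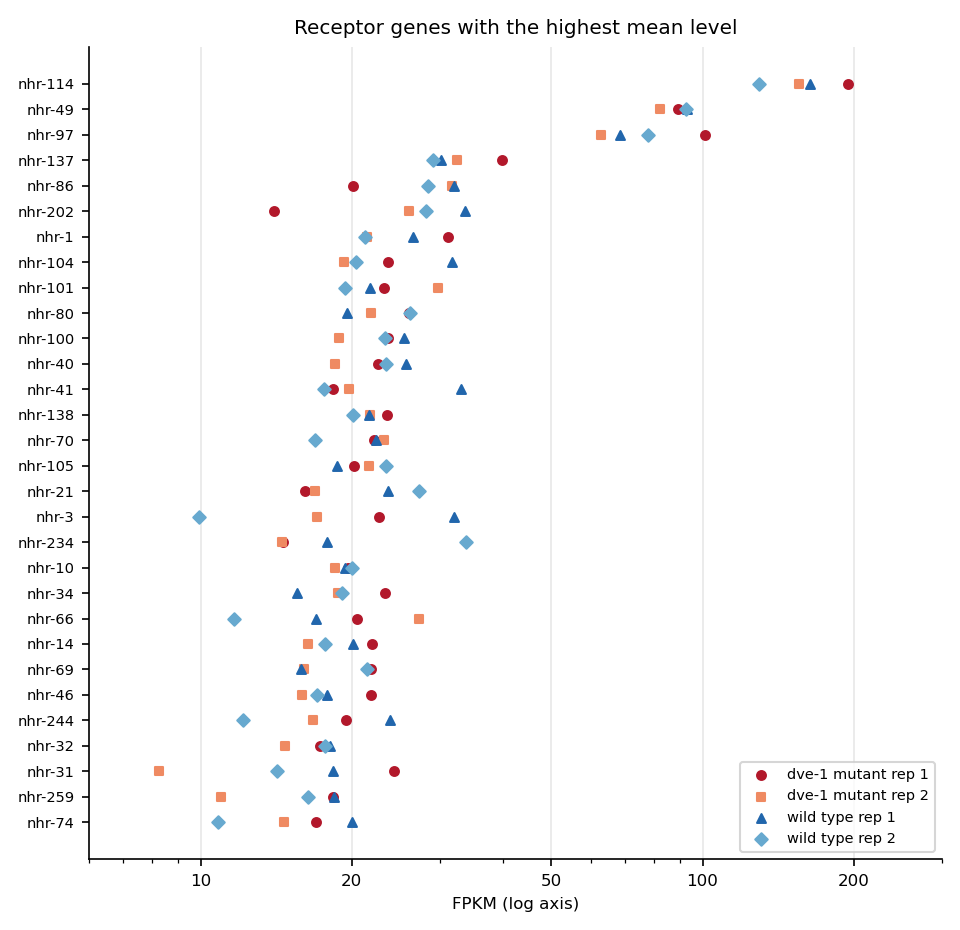
FPKM (log axis) of the 30 receptor genes with the highest mean level, 1 point for each of the 4 libraries; genes run down the page from the highest mean. nhr-114 stood alone above 100 FPKM in all 4 libraries, nhr-49 and nhr-97 followed at 62.8 to 101.1 FPKM, and for most genes the mutant and wild type points were mixed.

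No receptor gene passed the adjusted threshold in the comparison of dve-1 mutant with wild type animals, beside 0.13% of all tested genes. All members are protein-coding, and in the same fit only 1 of 13479 protein-coding genes passed. The smallest adjusted p of a member was 0.947, in limma with Benjamini-Hochberg adjustment over all 14664 genes. Without adjustment, 1 member, or 0.562%, had p under 0.05, against 4.6% of all tested genes and 3.46% of the protein-coding ones. The median log2 fold change of the members was 0.01, against -0.02 for all tested genes. From the 10th to the 90th percentile, members spanned -0.31 to 0.37, all tested genes spanned -0.47 to 0.41, and the protein-coding ones spanned -0.43 to 0.34. An absolute log2 fold change of at least 0.5 was reached by 17 members (9.55%), against 16.9% of all tested genes. The median standard error of a member was 0.25 on the log2 scale, so small differences were not detectable with 2 libraries per genotype. An exact two-sided permutation test of 2 against 2 libraries cannot go below p = 0.3333.

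The members split almost evenly by sign, with 94 higher and 84 lower in dve-1 mutant animals. The higher share was 52.8%, against 46.2% of all tested genes and 45.3% of the protein-coding ones. In 37 members (20.8%) both mutant values lay above both wild type values, against a background of 11.9% of all tested genes. These include nhr-115 and nhr-124, which entered through the dve-1 mutant libraries alone. In 21 members (11.8%) both mutant values lay below both wild type values, against a background of 16.2%. The other 120 members overlapped. With library values centred on their medians the counts were 25 higher and 15 lower, and with quantile normalization they were 33 higher and 18 lower. The higher count also moved with the libraries kept: without dve-1 mutant replicate 2 it was 84 against 35 lower, and without dve-1 mutant replicate 1 it was 50 against 77 lower. Without wild type replicate 1 there were 63 higher and 50 lower, and without wild type replicate 2 there were 61 higher and 52 lower. With 1 library left in a genotype, groups separate more easily by construction. Shares over all tested genes were not taken under these normalizations or with a library left out. These counts therefore do not set the members against other genes.

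The 2 mutant libraries differed from each other mostly in 1 direction. The median absolute log2 difference of a member was 0.25 between the dve-1 mutant libraries and 0.22 between the wild type libraries, against 0.33 and 0.30 for all tested genes. Replicate 1 of the dve-1 mutant was above replicate 2 in 132 of 178 members (74.2%), whereas over all tested genes this held in 46.5%. In wild type animals replicate 1 was above replicate 2 in 96 members (53.9%), against 63.2% of all tested genes. The highest value of a member fell in dve-1 mutant replicate 1 for 73 members and in dve-1 mutant replicate 2 for 24, against 44 and 37 in wild type replicates 1 and 2. The lowest value fell in dve-1 mutant replicate 2 for 72 members and in dve-1 mutant replicate 1 for 19, against 41 and 46 in wild type replicates 1 and 2. The FPKM of the members summed to 1989 and 1731 in the dve-1 mutant libraries, against 1913 and 1790 in the wild type libraries. The 2 mutant libraries were thus the highest and the lowest of the 4, and the median log2 fold change of the members was 0.12 without dve-1 mutant replicate 2 and -0.09 without dve-1 mutant replicate 1.

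**Figure D2:**
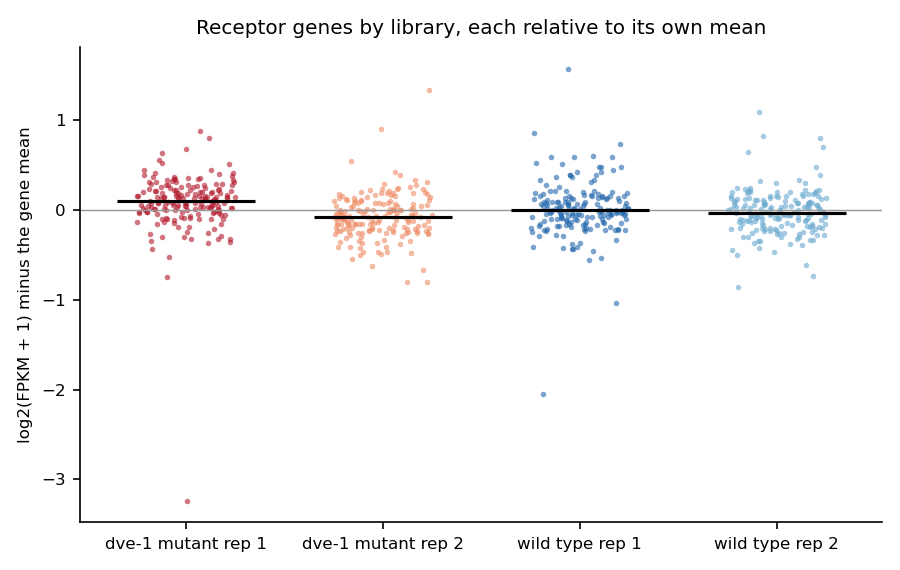
Each point is 1 of the 178 receptor genes in 1 library, as log2(FPKM + 1) minus the mean of that gene over the 4 libraries; bars are medians. The medians of dve-1 mutant replicates 1 and 2 lay on either side of those of the wild type libraries, and the point near the foot of dve-1 mutant replicate 1 is nhr-274, which was listed at 0 there.

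Markers of other tissues also differed between libraries. The summed level of 7 oocyte markers was 141 and 412 FPKM in dve-1 mutant animals, against 211 and 156 FPKM in wild type animals, so dve-1 mutant replicate 2 was the highest. Intestine is the tissue in which many receptors with known functions act. Its 10 markers were all higher in dve-1 mutant animals by sign, 6 of them without overlap, and summed to 6852 and 6733 FPKM against 4842 and 6160 FPKM in wild type animals. All 7 hypodermal markers were lower by sign, 5 of them without overlap, with sums of 1470 and 1144 FPKM in dve-1 mutant animals against 1862 and 2025 FPKM in wild type animals. Of 7 sperm markers 1 was higher and 6 lower by sign, with sums of 299 and 712 FPKM in dve-1 mutant animals against 659 and 504 FPKM in wild type animals. Molting genes were higher in 1 of 8, neuronal genes in 1 of 8, muscle genes in 2 of 5 and germ line genes in 5 of 7, all by sign. Lower without overlap were 3 sperm, 3 molting, 3 neuronal and 1 germ line markers. No oocyte, sperm, molting, neuronal, muscle or germ line marker was higher without overlap. Over all tested genes, 46.2% were higher by sign, 11.9% higher without overlap and 16.2% lower without overlap. None of these marker genes passed the adjusted threshold, and their part in the receptor values was not tested.

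Of 110 members that averaged at least 5 FPKM, 20 (18.2%) were higher in dve-1 mutant animals without overlap, against 11.2% of all tested genes at that level. A further 14 (12.7%) were lower without overlap, against 15.8% of all tested genes at that level. The largest higher difference was that of nhr-66 (T09A12.4; chromosome IV, 8226331 to 8236602), a partner of NHR-49 in the control of sphingolipid and lipid genes. It had 20.5 and 27.3 FPKM in dve-1 mutant animals, against 17.01 and 11.7 FPKM in wild type animals. The log2 fold change was 0.71 (SE 0.29, 95% interval -0.11 to 1.52; unadjusted limma p 0.0738). Next came nhr-25, a relative of the fly factor FTZ-F1 needed for molting and epidermal development, at 10.2 and 5.76 FPKM in dve-1 mutant animals, against 5.04 and 4.19 FPKM in wild type animals. Most of its log2 fold change of 0.64 (95% interval -0.33 to 1.60) came with dve-1 mutant replicate 1: without that library it was 0.27, and without dve-1 mutant replicate 2 it was 1.00.

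nhr-85, a relative of Rev-erb and E75 that takes part in the timing of larval stages, had 20.1 and 15.6 FPKM in dve-1 mutant animals, against 9.48 and 14.5 FPKM in wild type animals. The lower mutant value and the higher wild type value were close, and the log2 fold change was 0.55 (95% interval -0.29 to 1.40). Of the 6 largest higher differences, that of nhr-84 had the smallest standard error. The gene had 9.23 and 9.56 FPKM in dve-1 mutant animals, against 6.70 and 6.80 FPKM in wild type animals. Its log2 fold change was 0.42 (95% interval -0.14 to 0.99) and stayed between 0.40 and 0.45 when each library was left out in turn. nhr-65 had 8.86 and 6.99 FPKM in dve-1 mutant animals against 4.79 and 6.78 FPKM in wild type animals, and nhr-22 had 9.30 and 6.55 FPKM against 6.07 and 5.51 FPKM. For both, the lower mutant value was within 1 FPKM of the higher wild type value.

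On the lower side, nhr-21 (F21D12.1; chromosome II, 7339229 to 7349133) was the member with the smallest p. It had 16.1 and 16.9 FPKM in dve-1 mutant animals, against 23.6 and 27.3 FPKM in wild type animals. The means were 16.5 ± 0.527 FPKM and 25.5 ± 2.56 FPKM (SD, n = 2 each). Its log2 fold change was -0.59 (SE 0.19, 95% interval -1.11 to -0.07), and the adjusted p of 0.947 in limma did not pass. Leaving out each library in turn gave -0.69 to -0.49.

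The remaining lower differences were wider. nhr-234 had 14.6 and 14.5 FPKM in dve-1 mutant animals, against 17.9 and 33.7 FPKM in wild type animals, and nhr-63 had 6.88 and 6.62 FPKM against 16.8 and 7.84 FPKM. In each of them 1 wild type library carried most of the difference: the log2 fold change of nhr-234 was -0.28 without wild type replicate 2, against -0.72 with it, and that of nhr-63 was -0.19 without wild type replicate 1, against -0.70 with it. nhr-202 had 14.04 and 26.01 FPKM in dve-1 mutant animals, against 33.6 and 28.1 FPKM in wild type animals, with a log2 fold change of -0.65 that was -0.23 without dve-1 mutant replicate 1. nhr-112 had 5.86 and 3.15 FPKM in dve-1 mutant animals, against 8.44 and 5.98 FPKM in wild type animals, with a log2 fold change of -0.61. The last of the 6 was nhr-56, at 7.08 and 6.27 FPKM in dve-1 mutant animals against 8.02 and 9.19 FPKM in wild type animals.

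**Figure D3:**
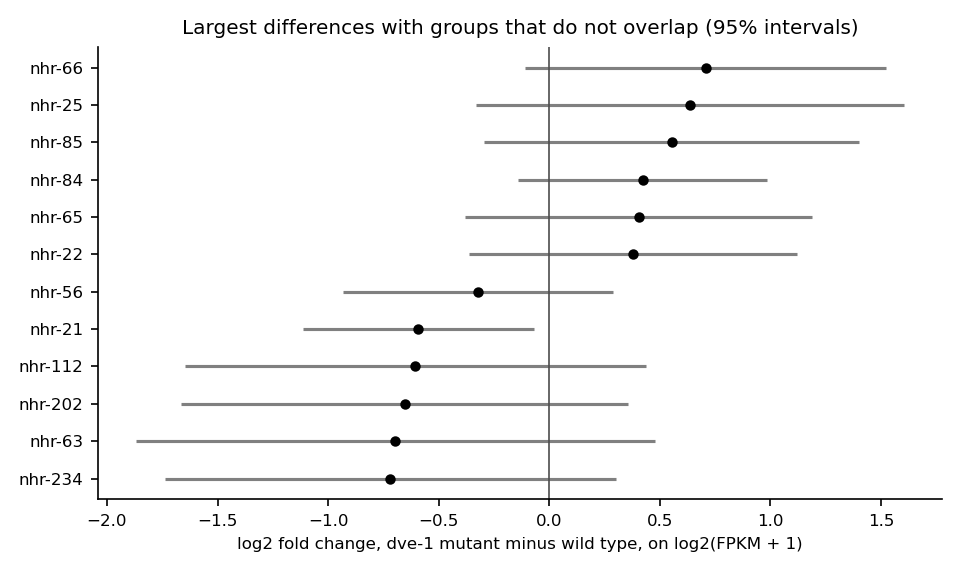
Log2 fold change on log2(FPKM + 1), dve-1 mutant minus wild type, with 95% intervals from limma, for the 6 largest differences in each direction among members that averaged at least 5 FPKM and whose groups did not overlap. Points lay between -0.72 and 0.71, and the interval of nhr-21 was the only one of the 12 that left out 0.

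Members with known roles were read group by group. Of 30 receptors listed for a role, 25 were members, and none passed the test. By sign, 14 of the 25 were higher and 11 lower, where 46.2% of all tested genes were higher. Without overlap, 7 were higher and 4 lower, against 11.9% and 16.2% of all tested genes. All 8 lipid receptors were members, with 7 higher and 1 lower by sign in dve-1 mutant animals, a median log2 fold change of 0.09 and a range of -0.11 to 0.71. Besides nhr-49 and nhr-66, nhr-80, which regulates fatty acid desaturation, had 26.03 and 21.8 FPKM in dve-1 mutant animals against 19.6 and 26.1 FPKM in wild type animals. Its partner nhr-13 had 5.34 and 4.99 FPKM in dve-1 mutant animals against 3.91 and 4.14 FPKM in wild type animals, without overlap. nhr-28 did not overlap either, at 18.3 and 16.2 FPKM in dve-1 mutant animals against 14.1 and 13.5 FPKM in wild type animals, with a log2 fold change of 0.30 (95% interval -0.24 to 0.83). nhr-62, needed for the long life of food-restricted animals, had 7.69 and 6.43 FPKM in dve-1 mutant animals against 9.35 and 5.11 FPKM in wild type animals, within the spread of its wild type libraries.

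The nutrient receptor nhr-10, which acts in the propionate shunt, was among the steadiest members: 19.6 and 18.6 FPKM in dve-1 mutant animals, against 19.4 and 20.1 FPKM in wild type animals. Its log2 fold change was -0.04 (95% interval -0.53 to 0.45). The other nutrient receptor measured was nhr-114, and nhr-68, which acts with nhr-10, was not analysed here. Of the xenobiotic receptors, nhr-8, known for cholesterol balance and toxin resistance, had 16.3 and 14.8 FPKM in dve-1 mutant animals against 13.9 and 13.8 FPKM in wild type animals. nhr-176, known for the response to the drug thiabendazole, had 5.53 and 6.78 FPKM in dve-1 mutant animals against 7.20 and 7.54 FPKM in wild type animals. Neither overlapped, and they lay on opposite sides, at log2 fold changes of 0.16 and -0.23.

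Stress receptors split evenly, with 2 higher and 2 lower by sign, and all 4 overlapped between genotypes. nhr-45, which drives detoxification genes when mitochondria are impaired, had 17.95 and 13.2 FPKM in dve-1 mutant animals against 15.2 and 13.9 FPKM in wild type animals. Its log2 fold change of 0.08 had a 95% interval of -0.59 to 0.75. nhr-14, known from iron uptake and immunity, had 21.9 and 16.3 FPKM in dve-1 mutant animals against 20.1 and 17.7 FPKM in wild type animals. nhr-57, a target of the hypoxia factor HIF-1, had 7.48 and 6.57 FPKM in dve-1 mutant animals against 12.5 and 6.54 FPKM in wild type animals. Only wild type replicate 1 stood apart in nhr-57.

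Developmental receptors gave 9 members, 3 higher and 6 lower by sign, around a median log2 fold change of -0.17 and a range of -0.71 to 0.64. Without overlap, 3 were higher and 2 lower, against 11.9% and 16.2% of all tested genes. nhr-91, a relative of the vertebrate receptor GCNF, had 12.2 and 6.14 FPKM in dve-1 mutant animals against 11.5 and 19.2 FPKM in wild type animals. Its log2 fold change of -0.71 had a 95% interval of -1.98 to 0.55, and the genotypes overlapped. nhr-40, needed for muscle and late larval development, had 22.6 and 18.5 FPKM in dve-1 mutant animals against 25.6 and 23.4 FPKM in wild type animals, without overlap. nhr-67, a relative of the fly gene tailless known from vulva and neurons, had 2.17 and 1.84 FPKM in dve-1 mutant animals against 2.51 and 2.98 FPKM in wild type animals, also without overlap. nhr-41, nhr-60 and nhr-64 overlapped. nhr-6, an NR4A relative of the spermatheca, had 4.06 and 4.78 FPKM in dve-1 mutant animals against 3.78 and 3.95 FPKM in wild type animals, higher without overlap. nhr-2 and nhr-239 were below the threshold, and nhr-111 was listed at 0 in all 4 libraries.

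Members also differed in how steady they were over the 4 libraries. In members with no value at 0, which were all but 2, the highest library was 1.05 to 4.51 times the lowest, with a median of 1.47 times. The ratio was under 1.2 in 15 members, among them nhr-49 and nhr-10. The steadiest was nhr-116, at 6.22 and 6.24 FPKM in dve-1 mutant animals, against 6.001 and 6.27 FPKM in wild type animals. The ratio was at least 2 in 31 members and at least 3 in 7. The widest was nhr-235, at 10.5 and 6.16 FPKM in dve-1 mutant animals against 3.096 and 13.97 FPKM in wild type animals, where both extremes were wild type libraries. nhr-3 behaved alike, at 22.7 and 17.1 FPKM in dve-1 mutant animals against 32.0 and 9.93 FPKM in wild type animals. nhr-116, nhr-235 and nhr-3 were chosen after their values were seen.

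Listed zeros touched 2 members. nhr-274 was listed at 0 in dve-1 mutant replicate 1 and at 22.97 FPKM in replicate 2, against 27.2 and 10.8 FPKM in wild type animals. nhr-5 had 3.29 and 6.80 FPKM in dve-1 mutant animals, against 0 and 7.89 FPKM in wild type animals, and rests on an accession annotated as non-coding alone. An exact 0 beside such values can be a failed estimate, so no fold is given. Both were named after their values were seen.

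Transcript accessions showed how the gene totals were made up. Members had 285 accessions, 63 members had more than 1, and 53 had more than 1 above 0. In 21 members, 33 accessions were listed at 0 in some library and reached at least 3 FPKM in another. Of 222 member accessions tested among 20088, none passed the adjusted threshold in limma, against 0.0498% of all accessions. Without adjustment 9 of them (4.05%) had p under 0.05, against 4.99% of all accessions. In 6 accessions both libraries of 1 genotype were at 0 and both of the other were at 1 FPKM or more, which is 2.7% of those tested, against 1.89% of all tested accessions.

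For nhr-49 the total and the main accession were steady, while the smaller accessions were not. The main accession, which held 69.6% of the gene level, had 61.9 and 61.4 FPKM in dve-1 mutant animals against 67.97 and 57.3 FPKM in wild type animals. A second accession was listed at 0 in both dve-1 mutant libraries, against 25.0 and 21.9 FPKM in wild type animals, with an adjusted p of 0.0813 in limma. The remaining accession had 27.5 and 20.7 FPKM in dve-1 mutant animals against 0 and 13.5 FPKM in wild type animals. The second accession was thus lower and the remaining one higher in both mutant libraries than in both wild type libraries, each with listed zeros, while the sums over all of them lay between 82.2 and 93.0 FPKM.

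In nhr-66, 1 accession had 4.47 and 5.44 FPKM in dve-1 mutant animals, against a listed 0 in each wild type library, with an adjusted p of 0.167 in limma. The accession holding 50.2% of the gene had 9.73 and 13.5 FPKM in dve-1 mutant animals against 9.35 and 5.79 FPKM in wild type animals. Another was at 6.30 and 8.31 FPKM in dve-1 mutant animals against 7.67 and 0 FPKM in wild type animals. A further accession ran the other way, listed at 0 in both dve-1 mutant libraries and in wild type replicate 1 and at 5.89 FPKM in wild type replicate 2. The gene total of nhr-66 thus includes accessions listed at 0 in libraries of either genotype.

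Division between accessions also differed within a genotype. In nhr-101 the coding accession had 18.4 and 15.02 FPKM in dve-1 mutant animals against 0 and 19.4 FPKM in wild type animals. Its accession annotated as non-coding had 4.75 and 14.7 FPKM in dve-1 mutant animals against 21.8 and 0 FPKM in wild type animals. The 2 wild type libraries were thus assigned wholly to different accessions, with similar totals of 21.8 and 19.4 FPKM. The low total of nhr-202 in dve-1 mutant replicate 1 went with an accession listed at 0 there, against 15.9 FPKM in dve-1 mutant replicate 2 and 16.99 and 16.2 FPKM in wild type animals. In nhr-21 none of the 4 accessions above 0 was lower in both mutant libraries than in both wild type libraries, so the difference in its total cannot be assigned to 1 of them. nhr-101 was described after its values were seen.

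**Figure D4:**
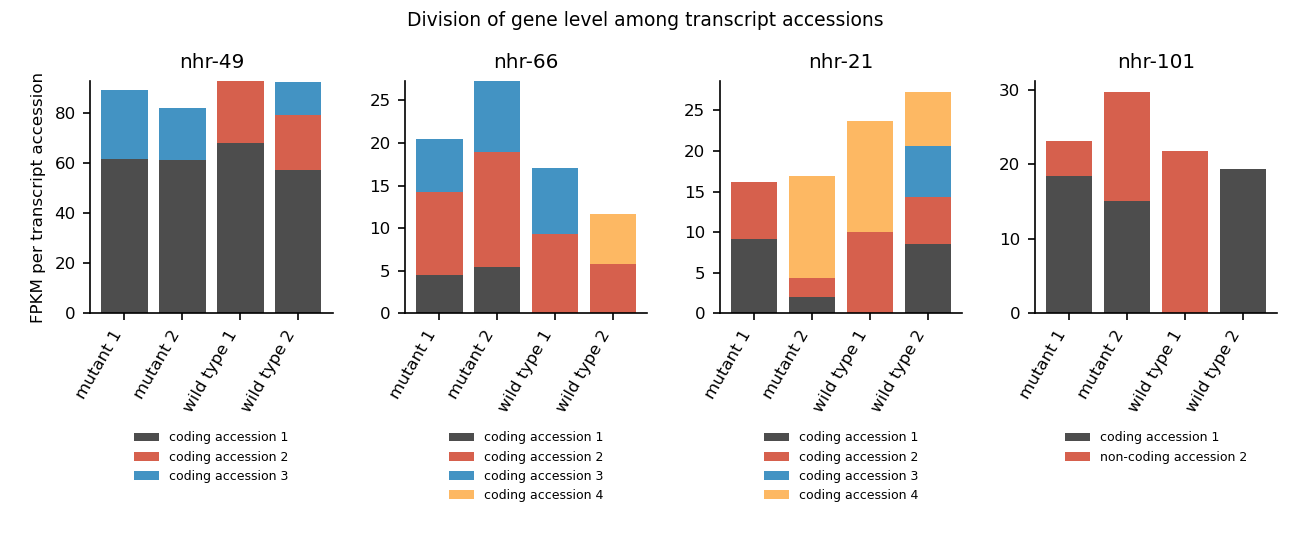
Stacked bars give FPKM of each transcript accession above 0 in each library for nhr-49, nhr-66, nhr-21 and nhr-101; bar height is the gene level. The height for nhr-49 stayed between 82.2 and 93.0 FPKM while the second accession was listed at 0 in both dve-1 mutant libraries, and the 2 wild type bars of nhr-101 hold different accessions.

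Receptor genes were unevenly placed over the chromosomes. Chromosome V carried 113 of the 178 members (63.5%), against 20.8% of the protein-coding genes tested. The share of measured nhr genes that were members was 72.0% on chromosome V and 67.01% on the other chromosomes. Members on chromosome V had a median mean level of 4.92 FPKM, against 12.8 FPKM for members elsewhere, although nhr-114, the highest of all, lies on it. The median log2 fold change was 0.01 on chromosome V and 0.02 elsewhere.

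Many family members lie side by side. In the annotation there were 16 runs of at least 3 neighbouring nhr genes, 12 of them on chromosome V, holding 77 measured genes of which 55 were members. In 8 runs all measured genes were members, and in 3 runs none was. A run of 7 genes on chromosome V (2219004 to 2235180, WBcel235), which includes nhr-56 and nhr-96, had mean levels of 4.02 to 12.3 FPKM. Another of 7 genes (6980591 to 7000651), which includes nhr-107 and nhr-42, had 3.14 to 13.8 FPKM. By contrast, none of 6 neighbouring genes on chromosome V (15674007 to 15696217), nhr-51 and nhr-198 among them, averaged above 0.265 FPKM, and none of 4 on chromosome X (12695589 to 12808318), nhr-26 and nhr-27 among them, was a member. A run of 9 genes (3844429 to 3886204) straddled the threshold, with 4 members at 0.845 to 1.15 FPKM. How reads shared by near-identical neighbours were divided is not given in the sources used here, so levels of single genes within a run are uncertain.

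**Figure D5:**
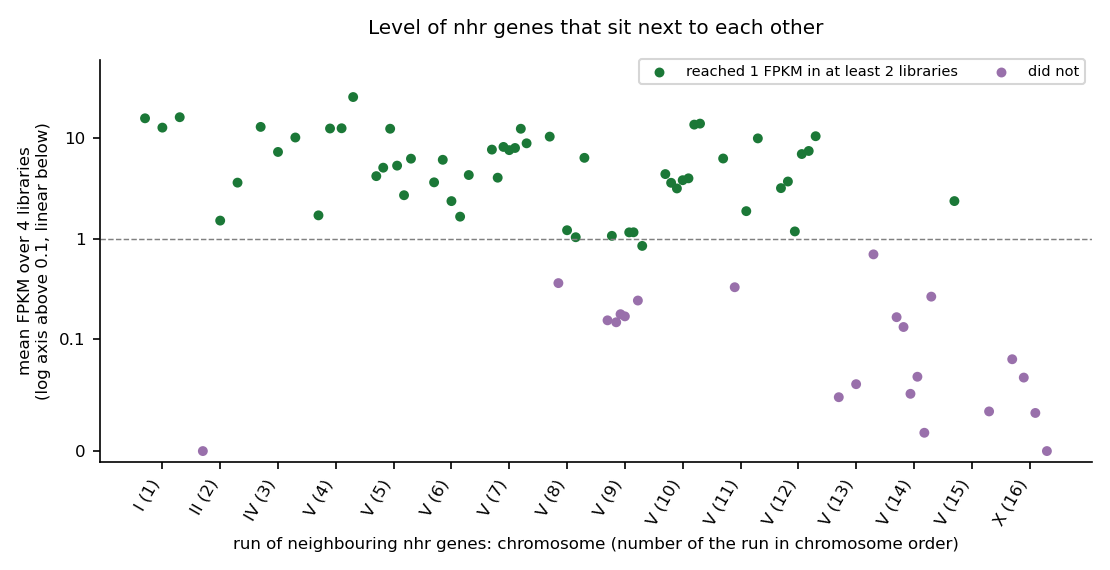
Mean FPKM over the 4 libraries (log axis above 0.1, linear below) of measured nhr genes in 16 runs of at least 3 neighbours, in chromosome order; green points reached 1 FPKM in at least 2 libraries and purple points did not, and the dashed line is 1 FPKM. In 8 runs all points are green and in 3 none is.

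Members close to the threshold were few. Just inside it, nhr-115 had 1.55 and 1.06 FPKM in dve-1 mutant animals against 0.759 and 0.747 FPKM in wild type animals, and nhr-124 had 1.26 and 1.16 FPKM against 0.404 and 0.560 FPKM. nhr-186, between them by its distance from the threshold, had 0.922 and 1.28 FPKM in dve-1 mutant animals against 1.07 and 0.977 FPKM in wild type animals, which overlapped. nhr-115 and nhr-124 passed through the dve-1 mutant libraries alone, so that their direction was set by the filter, and 0 members passed through the wild type libraries alone. Just outside it were nhr-239, at 0.475 and 0.483 FPKM in dve-1 mutant animals against 1.01 and 0.977 FPKM in wild type animals, and nhr-236, at 0.772 and 1.13 FPKM against 0.413 and 0.561 FPKM. Of the 76 genes below the threshold, 17 were listed at 0 in all 4 libraries and 5 reached 1 FPKM in 1 library.

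The surroundings of the receptors were read from lists of 57 tested genes, and 0 of these passed the adjusted threshold in limma. Over all tested genes, 46.2% were higher by sign, 11.9% higher without overlap and 16.2% lower without overlap. The counts for each list, here and in the paragraphs that follow, stand beside these shares. Mediator is the complex through which receptors such as NHR-49 contact RNA polymerase. Of 23 tested subunits, 15 were higher and 8 lower by sign in dve-1 mutant animals, with a median log2 fold change of 0.03, and 4 higher and 2 lower without overlap. mdt-15, the subunit that binds NHR-49, was listed at 0 in dve-1 mutant replicate 1 and at 34.1 FPKM in replicate 2, against 22.8 and 25.9 FPKM in wild type animals.

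Among 9 tested genes known to respond to NHR-49, 6 were higher and 3 lower by sign, around a median log2 fold change of 0.03, and 0 higher and 2 lower without overlap. fat-7, a stearoyl-CoA desaturase, had 154 and 123 FPKM in dve-1 mutant animals against 134 and 46.1 FPKM in wild type animals. acs-2, an acyl-CoA synthetase of fat breakdown, had 40.1 and 39.2 FPKM in dve-1 mutant animals against 24.6 and 41.1 FPKM in wild type animals. Both overlapped between genotypes. ech-1.1, of mitochondrial fat breakdown, had 3.42 and 3.54 FPKM in dve-1 mutant animals against 5.74 and 5.29 FPKM in wild type animals, with a log2 fold change of -0.54 that did not pass the test. The other gene lower without overlap was acs-11, at 34.5 and 29.8 FPKM in dve-1 mutant animals against 41.3 and 35.9 FPKM in wild type animals.

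The propionate shunt, which NHR-10 and its partner switch on when vitamin B12 runs short, had the smallest p of the lists. All 3 tested genes were higher by sign, 2 of them without overlap, with a median log2 fold change of 0.58. hach-1 had 667 and 682 FPKM in dve-1 mutant animals against 403 and 435 FPKM in wild type animals, with a log2 fold change of 0.69 and an adjusted p of 0.421 in limma. hphd-1 had 631 and 531 FPKM in dve-1 mutant animals against 343 and 438 FPKM in wild type animals, with a log2 fold change of 0.58. Neither passed the threshold, and nhr-10 itself lay within 18.6 to 20.1 FPKM in all 4 libraries. alh-8 overlapped, and the shunt genes acdh-1 and ech-6 were not analysed here.

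In the methionine cycle, which NHR-114 serves, 5 of 10 tested genes were higher and 5 lower by sign, and the median log2 fold change was -0.01. Without overlap, 2 of these genes were higher and 0 lower. pmt-1, of phosphatidylcholine synthesis, was listed at 0 in dve-1 mutant replicate 2 and at 62.8 FPKM in replicate 1, against 40.4 and 55.7 FPKM in wild type animals. Of 8 tested genes around dafachronic acid, the steroid ligand of DAF-12, 2 were higher and 6 lower by sign, and the median log2 fold change was -0.11. Without overlap, 0 of the 8 were higher and 2 lower. strm-1, a sterol methyltransferase, had 30.7 and 20.3 FPKM in dve-1 mutant animals against 32.3 and 49.04 FPKM in wild type animals, without overlap.

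Nuclear receptors that carry other names gave 4 tested genes, 1 higher and 3 lower by sign. daf-12, the receptor for dafachronic acid, had 8.73 and 10.6 FPKM in dve-1 mutant animals against 7.95 and 13.6 FPKM in wild type animals. sex-1, a receptor of sex determination, had 7.81 and 7.59 FPKM in dve-1 mutant animals against 6.08 and 4.97 FPKM in wild type animals, without overlap and with a log2 fold change of 0.42. fax-1 and unc-55, receptors of neuron identity, lay between 1.46 and 2.89 FPKM in all 4 libraries, and fax-1 was lower in dve-1 mutant animals without overlap. odr-7, of olfactory neurons, was below the filter.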

How the data were processed

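The table as deposited gives each of 52491 RefSeq transcript accessions 1 value in each library. The authors deposited them under a header that names no unit, and they were taken to be FPKM. TopHat2, Cufflinks and ce11 are named, without versions or settings, per the submitters' processing notes. Whether libraries were scaled to each other, and the strandedness, are not stated in the labels or notes. RNA was total RNA, extracted with Trizol and purified on columns, and the libraries were prepared by a sequencing provider, per the labels' protocols.

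Accessions were matched to WBcel235 genes (the coordinates of ce11) ignoring versions. Of them 47645 (90.8%) matched, holding 76.8% to 78.4% of the summed FPKM, and FPKM were summed per gene, so a gene with an unmatched isoform is understated. Depth was estimated from 1512 single-transcript genes, in which 66.4% to 68.2% of low values fell within 0.1 of whole fragments. This assumes that the values were scaled to mapped fragments alone.

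The tests came from limma 3.58.1 (R 4.3.3), trended by mean level, and took log2(FPKM + 1), a pseudocount that understates the change of low genes. A gene entered when 2 libraries or more reached 1 FPKM. The tests were two-sided, with Benjamini-Hochberg adjusted p under 0.05 over all 14664 genes and 3.84 degrees of freedom. Each fold change is that of dve-1 mutant over wild type. Tables were prepared in Python 3.11.15 (pandas 2.3.3), and the limma step was tested on simulated data. The members and the gene lists were chosen with earlier results of these data known. Named members were those listed for a role, the 5 with the highest mean, and up to 6 per direction with the largest fold change among members that averaged at least 5 FPKM and whose groups did not overlap. Replicate numbers were not used as pairs in the main fit. The deviations of same-numbered libraries correlated at -0.19 over all tested genes, which cannot show how the libraries were prepared. In log2(FPKM + 1), the mutant libraries correlated with each other at 0.912 and the wild type libraries at 0.926. Across genotypes the correlations were 0.908 to 0.930, so the mutant libraries were not closest to each other. Alternatives were another pseudocount and other filters, other normalizations, limma without the trend, protein-coding genes only, accessions of the same version only, a replicate block and each library left out.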

Additional observations from a re-analysis of the deposited data

How the results depend on the processing

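Under every alternative run, 0 receptor genes passed the adjusted threshold in limma. At an unadjusted p under 0.05, 0 to 4 members passed. The count over all genes, 19 as reported, was 86 without the trend, 14 with median-centred values, 19 with quantile normalization, 10 with a pseudocount of 0.1 FPKM, 3 with no filter, 10 with at least 5 FPKM in 2 libraries, 0 among protein-coding genes only, 103 with accessions of the same version only, and 0 to 0 when each library was left out in turn. With the replicate block it was 0, and 0 members passed. A crossed pairing of the libraries, chosen after seeing the data because same-numbered libraries deviated oppositely, gave 0 genes and 0 members.

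The median log2 fold change of the members was -0.090 to 0.12 with a library left out, and 0.21 with accessions of the same version, where 13 members were tested. The 58 members without overlap were 36 with at least 5 FPKM, where 115 members were tested, 4 with the same version, and 113 to 127 with a library left out. The 94 members higher by sign were 58 and 8 under those filters. These smaller counts come with fewer members tested. Shares over all tested genes were not taken for the counts without overlap under these alternatives. Signs were followed through the alternatives for 48 genes, which do not include every gene given by value above. Among these 48, leaving out a library reversed the sign of 14 and no other alternative reversed any: nhr-14 (-0.20 to 0.21), nhr-41 (-0.76 to 0.10), nhr-45 (-0.13 to 0.29), nhr-57 (-0.75 to 0.087), nhr-60 (-0.46 to 0.32), nhr-62 (-0.37 to 0.40), nhr-64 (-0.42 to 0.089), nhr-69 (-0.19 to 0.23), nhr-76 (-0.10 to 0.33), nhr-80 (-0.13 to 0.27), nhr-86 (-0.56 to 0.068), nhr-97 (-0.21 to 0.46), mdt-17 (-1.60 to 0.013) and pmt-1 (-5.60 to 0.40). Outside the 48, the signs of further genes also depended on the libraries kept, among them nhr-3, nhr-235, mdt-15, acs-2 and daf-12. Without dve-1 mutant replicate 1, mdt-15 was higher in the mutant. Without wild type replicate 1, acs-2 was lower, and without wild type replicate 2, daf-12 was higher. The causes were not tested. With 2 libraries per genotype and a median level of 7.20 FPKM, small differences between genotypes were not detectable.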
